A study of Mus musculus with 7 samples.

Results

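The enteric neuropeptide genes described here are Vip, Gal, Tac1, Penk, Npy, Cartpt, Calcb, Nmu, Grp and Sst, 10 of the 27179 genes in the deposited table. They were chosen by name, as precursors of peptide transmitters of the enteric nervous system, and read in all 7 libraries of the study. Earlier results of these data were known when they were chosen. Neural crest-derived cells were isolated from Wnt1-Cre;tdTomato (Wnt1-tdT) mice, which carry the Wnt1-Cre driver and the R26R-tdT reporter, so that Cre activity under Wnt1 control turns on tdTomato in crest-derived cells, which in the bowel include neurons as well as glia. All 7 libraries came from these mice at 1 month of age, each from about 50000 cells pooled equally from 3 mice (2 female and 1 male), so each library is 1 pool and each group has 1 library. The tissue was the muscle layer of the small bowel with its myenteric plexus, or the posterior subcutaneous fat pads.

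The groups were as follows. Adipose neurospheres were grown from mixed adipose cells for 10 days, sorted for tdTomato and grown for a further 10 days. Adipose primary cells were sorted for tdTomato straight after digestion. Bowel M2 neurospheres were made in the same way as the adipose neurospheres, with 10 days of mixed culture and a further 10 days after sorting. Bowel spheroid cells with tdTomato and those without it were separated after 10 days of mixed culture and not cultured again, and the negative cells are the only library that is not crest-derived by its label. Bowel M1 neurospheres were sorted first and then grown for 10 days. Bowel primary cells were sorted for tdTomato straight after digestion. The medium of all cultures was one for neural proliferation and held heparin with 2 mitogens, FGF2 (basic FGF) and EGF.

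Neuropeptides are made as longer precursor proteins that are sorted into dense-core granules, cut at pairs of basic residues by the prohormone convertases Pcsk1 and Pcsk2, trimmed by carboxypeptidase E (Cpe) and often amidated by Pam before release. In the myenteric plexus different combinations of these peptides mark different functional classes of neuron: substance P, from Tac1, is a transmitter of excitatory motor neurons, VIP of inhibitory motor and secretomotor neurons, and CGRP, neuromedin U and somatostatin are found in sensory neurons and interneurons.

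Promoter windows from RefSeq (build GRCm38, 250 bases before to 50 bases after the start that the table gives a gene) were given for 7 of the 10 genes, Vip, Gal, Tac1, Npy, Cartpt, Nmu and Sst, and not for Penk, Calcb and Grp. The cAMP response element, TGACGTCA, was first described in the somatostatin promoter and is the motif by which cAMP signalling acts on several peptide genes. On both strands it was found in 2 of the 7 windows, those of Cartpt (bases -112 to -105 from the start) and Sst (bases -48 to -41), and in 1.79% of all 32851 windows. Its core, TGACG, was added after the windows had been read and is contained in TGACGTCA. It was found in 6 of the 7 windows, all but that of Npy, and in 20.8% of all windows. In the Vip window it lay at bases -79 to -75. The E-box CAGCTG was found in 0 of the 7 windows and in 16.3% of all windows, and the AP-1 site TGANTCA in 1 of the 7, that of Nmu at bases -171 to -165, and in 7.81% of all windows. These matches describe the letters and were not measured as sites of binding. The 250 bases before the table's start are shown for 4 genes, 5′ to 3′ on the strand of the gene: Sst (chr16:23890845-23891094, minus strand) and Cartpt (chr13:99900684-99900933, minus strand) because they hold the whole element, Vip (chr10:5638968-5639217, plus strand) because its profile over the libraries was nearest to that of Cartpt, and Npy (chr6:49822460-49822709, plus strand) as the window without the core and the gene with the highest share kept in bowel M2 neurospheres. That start is not always the outer end of the gene: by the RefSeq gene bounds given with each gene, which span all its transcript models, the bases shown for Sst and Cartpt lie within the gene, those for Vip run past the gene's first base, and those for Npy end just before it. Capitals mark TGACGTCA in Sst and Cartpt and TGACG in Vip.
Sst: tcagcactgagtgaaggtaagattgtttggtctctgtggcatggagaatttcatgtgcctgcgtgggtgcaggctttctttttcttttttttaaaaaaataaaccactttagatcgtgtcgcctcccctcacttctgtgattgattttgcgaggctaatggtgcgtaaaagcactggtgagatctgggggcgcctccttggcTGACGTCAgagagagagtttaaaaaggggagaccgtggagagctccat
Cartpt: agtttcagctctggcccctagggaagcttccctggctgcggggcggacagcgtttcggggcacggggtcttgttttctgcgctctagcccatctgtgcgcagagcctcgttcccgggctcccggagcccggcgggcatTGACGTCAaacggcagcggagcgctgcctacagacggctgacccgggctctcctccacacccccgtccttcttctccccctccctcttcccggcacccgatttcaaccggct
Vip: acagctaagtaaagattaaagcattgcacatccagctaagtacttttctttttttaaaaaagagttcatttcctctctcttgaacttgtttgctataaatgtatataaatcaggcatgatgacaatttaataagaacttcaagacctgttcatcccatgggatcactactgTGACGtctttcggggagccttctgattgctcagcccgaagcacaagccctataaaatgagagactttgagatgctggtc
Npy: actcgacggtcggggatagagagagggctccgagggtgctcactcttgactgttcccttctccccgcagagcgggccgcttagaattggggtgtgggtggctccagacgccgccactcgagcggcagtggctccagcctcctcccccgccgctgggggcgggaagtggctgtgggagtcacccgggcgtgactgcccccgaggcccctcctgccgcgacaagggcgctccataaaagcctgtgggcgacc

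Read totals lay between 51885106 and 65301500 per library, so that 1 read was worth between 0.0153 and 0.0193 CPM (reads of a gene, scaled to a common library total of 1e6 reads). Intervals on a level are 95% exact Poisson intervals, and those on a ratio are 95% exact conditional binomial intervals. Both treat reads as independent counts and leave out the spread between pools. Because the reads were amplified by PCR and carry no molecular identifiers, the intervals may be too narrow even for counting error. With 1 library a group, no difference could be tested against the spread between replicates, and no p-value is given. A gene counted as measured where at least 1 of the 2 libraries compared held 1 CPM. It was called higher or lower at 4-fold or more with the interval of the ratio wholly beyond 2-fold. A gene under 1 CPM in 1 of the 2 was measured only through the other, and could not be called higher in its low library. In this bulk RNA, fewer cells of a type and less RNA per cell cannot be told apart. The bowel primary library also held reads of 18 pancreatic acinar genes, such as Cela2a, Cel and Clps. Together these genes took 7.77% of its reads and at most 0.0246% in the other libraries. The part of that material in the peptide results was not tested, and the islet and enteroendocrine markers that bear on it are given beside the genes they touch.

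All 10 genes were found at 10 CPM or more in bowel primary cells, and together they took 0.365% of the reads of that library (95% Wilson interval 0.363% to 0.366%). In culture and in adipose tissue the share was lower. It was 0.0138% in adipose neurospheres, 0.00218% in adipose primary cells, 0.0522% in bowel M2 neurospheres, 0.0151% in tdTomato-positive spheroid cells, 0.0558% in bowel M1 neurospheres and 0.0222% in tdTomato-negative spheroid cells. The number of the 10 genes at 1 CPM or more was 2 in adipose neurospheres, 3 in adipose primary cells, 6 in each of the 3 cultured crest-derived bowel libraries and 4 in tdTomato-negative spheroid cells. With the acinar genes taken out of the total, the share in bowel primary cells was 0.395%.

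**Figure D1:**
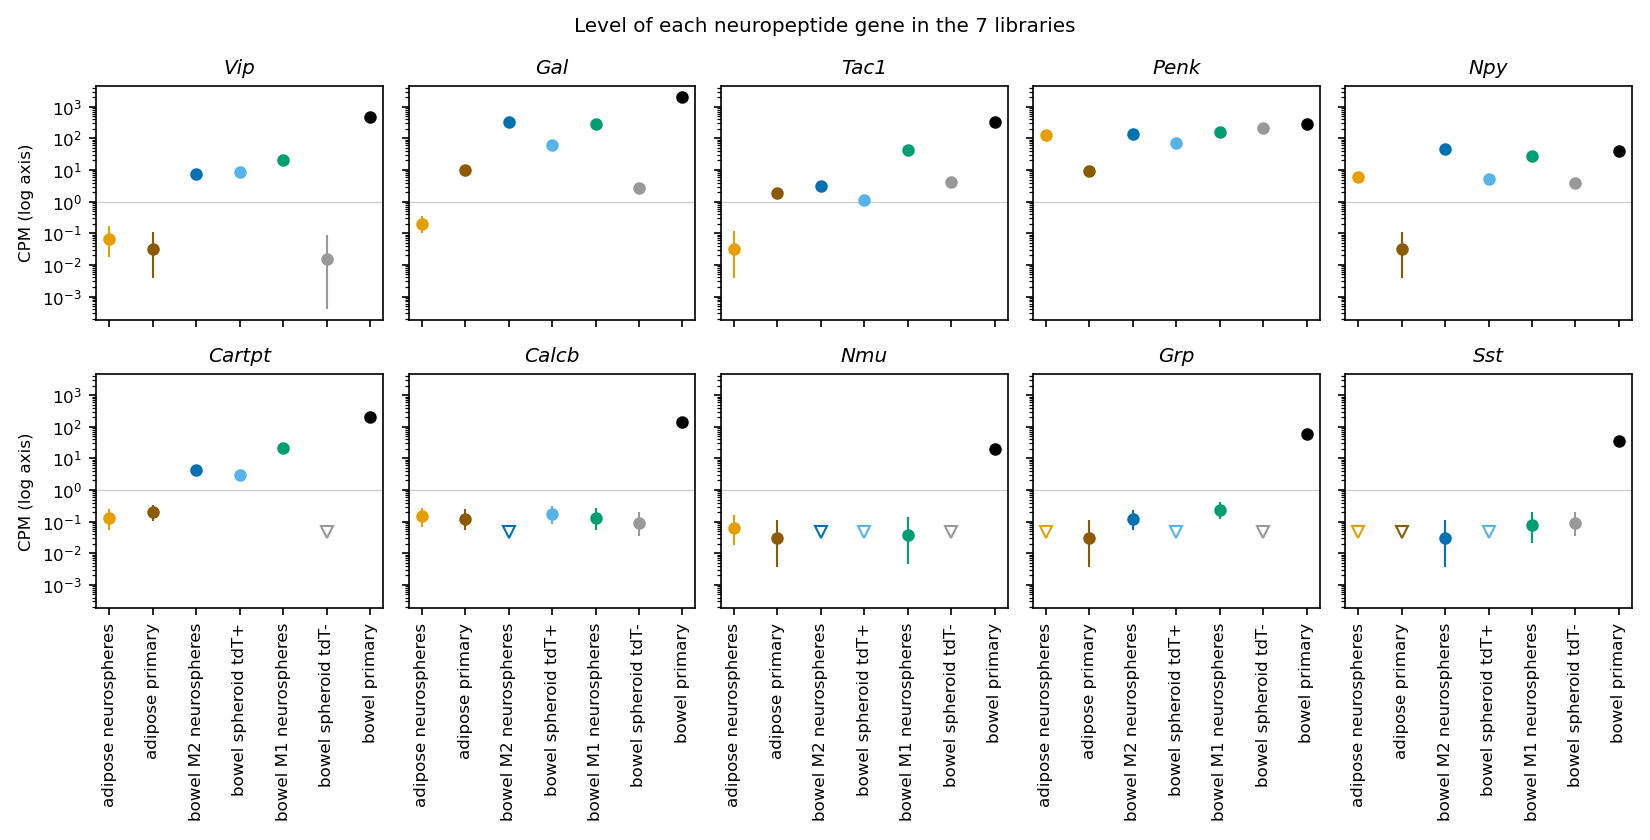
Level of each neuropeptide gene, in CPM on a log axis, in the 7 libraries (1 point each), with 95% Poisson counting intervals as vertical lines. Open triangles stand at the level of 3 reads for libraries with 0 reads, and the grey line marks 1 CPM. Vip, Gal, Tac1 and Cartpt fall off in steps below the bowel primary library. Penk is at 70.9 CPM or more in every culture. Npy is at 46.2 CPM in M2 and 28.4 CPM in M1 neurospheres, and between 3.77 and 6.02 CPM in the other cultures. Calcb, Nmu, Grp and Sst are below 1 CPM everywhere but in bowel primary cells.

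Vip encodes vasoactive intestinal peptide, which relaxes gut muscle and drives secretion, and lies at chr10:5639193-5647617 (plus strand). Its level was 0.0649 CPM in adipose neurospheres, 0.0312 CPM in adipose primary cells, 7.72 CPM in bowel M2 neurospheres, 8.71 CPM in tdTomato-positive spheroid cells, 20.2 CPM in bowel M1 neurospheres, 0.0155 CPM in tdTomato-negative spheroid cells and 456 CPM in bowel primary cells. The adipose and tdTomato-negative libraries held at most 4 reads of the gene. Neighbours in the order of levels were set apart where their counting intervals did not overlap and their CPM differed 2-fold or more. By that rule bowel primary cells stood above M1 neurospheres, and these above tdTomato-positive spheroid cells, which could not be told from M2 neurospheres.

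Gal encodes galanin, a modulator of transmitter release from enteric neurons, and lies at chr19:3409915-3414544 (minus strand). It was the most abundant of the 10 in bowel primary cells, where it took 119915 reads. Its level was 0.195 CPM in adipose neurospheres, 9.96 CPM in adipose primary cells, 328 CPM in M2 neurospheres, 61.6 CPM in tdTomato-positive spheroid cells, 289 CPM in M1 neurospheres, 2.69 CPM in tdTomato-negative spheroid cells and 2079 CPM in bowel primary cells. The order of the 7 libraries was resolved at each step apart from M2 and M1 neurospheres. The lowest of the 4 crest-derived bowel libraries held 61.6 CPM and the highest of the other 3 libraries 9.96 CPM. How many of all genes divide the libraries in this way was not counted.

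Npy encodes neuropeptide Y, a peptide of enteric neurons and of sympathetic neurons, and lies at chr6:49822710-49829507 (plus strand). Its level was 6.02 CPM in adipose neurospheres, 0.0312 CPM (2 reads) in adipose primary cells, 46.2 CPM in M2 neurospheres, 5.22 CPM in tdTomato-positive spheroid cells, 28.4 CPM in M1 neurospheres, 3.77 CPM in tdTomato-negative spheroid cells and 40.0 CPM in bowel primary cells. M2 neurospheres, bowel primary cells and M1 neurospheres were not set apart at the top of the order, and adipose neurospheres and both fractions of the spheroids were not set apart below them. Npy was the only one of the 10 genes whose highest plain CPM was in a culture.

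Tac1 encodes the precursor of substance P and neurokinin A, the tachykinins that contract gut muscle, and lies at chr6:7555061-7562978 (plus strand). Its level was 0.0325 CPM (2 reads) in adipose neurospheres, 1.89 CPM in adipose primary cells, 3.17 CPM in M2 neurospheres, 1.11 CPM in tdTomato-positive spheroid cells, 42.4 CPM in M1 neurospheres, 4.27 CPM in tdTomato-negative spheroid cells and 327 CPM in bowel primary cells. Bowel primary cells stood above M1 neurospheres and these above all others. The next 4 libraries (tdTomato-negative spheroid cells, M2 neurospheres, adipose primary cells and tdTomato-positive spheroid cells) were not set apart from their neighbours.

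Penk encodes proenkephalin, the precursor of the enkephalins, opioid peptides that dampen gut motility and secretion, and lies at chr4:4133536-4138815 (minus strand). Its level was 132 CPM in adipose neurospheres, 9.48 CPM in adipose primary cells, 133 CPM in M2 neurospheres, 70.9 CPM in tdTomato-positive spheroid cells, 155 CPM in M1 neurospheres, 211 CPM in tdTomato-negative spheroid cells and 287 CPM in bowel primary cells. Every library but that of adipose primary cells held 70.9 CPM or more, and no neighbours among these 6 differed 2-fold. Penk was the only one of the 10 genes at more than 5 CPM in the tdTomato-negative cells, the library in which fibroblast markers such as Col1a1 and Dcn were highest (summed level of 8 markers 23847 CPM, against 545 CPM in the tdTomato-positive cells of the same spheroids). Adipose primary cells, with the second highest sum of fibroblast markers (12107 CPM), had the lowest Penk. Their Col3a1 (8326 CPM, against 7002 CPM in tdTomato-negative cells) and Pi16 (90.2 CPM, against 15.4 CPM) were higher. The other listed markers were lower in adipose primary cells: Dcn (993 CPM, against 7124 CPM), Lum, Pdgfra, Dpt, Col1a1 and Col1a2. Whether fibroblasts carried Penk reads was not tested.

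Cartpt encodes the CART peptides, found in enteric interneurons and other myenteric neurons, and lies at chr13:99898483-99910179 (minus strand). Its level was 0.130 CPM in adipose neurospheres, 0.203 CPM in adipose primary cells, 4.26 CPM in M2 neurospheres, 2.99 CPM in tdTomato-positive spheroid cells, 22.0 CPM in M1 neurospheres, 0 CPM in tdTomato-negative spheroid cells and 199.7 CPM in bowel primary cells. For the 0 reads in tdTomato-negative cells, the interval reaches up to 0.0570 CPM, and a floor of 3 reads stands at 0.0464 CPM. The order was the one seen for Vip: bowel primary cells first, M1 neurospheres next, and M2 neurospheres and tdTomato-positive spheroid cells not set apart after them.

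The other 4 genes were read in bowel primary cells and hardly anywhere else. Calcb encodes the beta form of calcitonin gene-related peptide, the main CGRP of enteric neurons in rodents, and lies at chr7:114716555-114723368 (plus strand). It had 143 CPM in bowel primary cells (8227 reads) and between 0 and 0.170 CPM in the other 6 libraries. Its neighbour Calca, which encodes the alpha form and is closely related in sequence, had 5.11 CPM in bowel primary cells and between 0.130 and 1.30 CPM elsewhere, and how the authors' counting split reads that fit both genes is uncertain. Grp encodes gastrin-releasing peptide, a stimulant of gut muscle found in enteric interneurons, and lies on chromosome 18 at bases 65872751 to 65886599 (plus strand). It had 59.5 CPM in bowel primary cells (3432 reads) and between 0 and 0.231 CPM elsewhere. Sst encodes somatostatin, an inhibitory peptide of enteric interneurons and also of endocrine cells of gut and pancreas, and lies at chr16:23889573-23891342 (minus strand). It had 35.4 CPM in bowel primary cells (2041 reads) and between 0 and 0.0928 CPM elsewhere. Nmu encodes neuromedin U, a peptide that contracts smooth muscle and, in mice, activates innate lymphoid cells, and lies at chr5:76333495-76363777 (minus strand). It had 19.7 CPM in bowel primary cells (1137 reads) and between 0 and 0.0649 CPM elsewhere. Nmu overlaps 2 gene models (4930432L08Rik and Gm34175) and Grp overlaps 1 (Gm30094), none with a row in the files, and since the strand setting of the counting is not given, reads of overlapping genes cannot be told apart.

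Sst and several peptide genes are also used by endocrine cells, so the markers of those cells were read in the same library. Of 10 pancreatic islet markers, 4 (Ins1, Ins2, G6pc2 and Slc30a8) had 0 reads in bowel primary cells, and their summed level was 12.9 CPM there, of which Ppy (pancreatic polypeptide) gave 9.26 CPM. The summed level was between 0.125 and 3.79 CPM in the other libraries. Ppy had 534 reads in bowel primary cells and at most 0.0312 CPM elsewhere. Ucn3, which encodes urocortin 3, a peptide also made in islets, was read in the same way, with 591 reads (10.2 CPM) in bowel primary cells and at most 0.0385 CPM elsewhere. The part of islet cells in the Sst reads was not tested. Of 10 enteroendocrine markers, 7 reached 1 CPM in bowel primary cells, each between 1.46 CPM (Nts) and 2.63 CPM (Ghrl), and summed to 15.4 CPM. The summed level elsewhere was between 1.40 and 96.0 CPM, and the 96.0 CPM in tdTomato-negative spheroid cells was nearly all Cck (94.7 CPM).

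Levels of different genes can be set side by side only per length. The length used was the union of exons over all transcript models of a gene (3402 bases for Vip and 3399 for Tac1). A gene whose main transcript is shorter than this union is understated, so the order of the genes below may depend on that choice. Per kb of exon, bowel primary cells held 2638 CPM of Gal, 176 CPM of Penk, 156 CPM of Cartpt, 134 CPM of Vip, 113 CPM of Calcb, 96.1 CPM of Tac1, 70.6 CPM of Npy, 49.1 CPM of Sst, 40.3 CPM of Grp and 23.8 CPM of Nmu. Gal made up 75.4% of the 10 genes' reads per kb in bowel primary cells. It also led in M2 neurospheres (71.1%), tdTomato-positive spheroid cells (57.4%), M1 neurospheres (66.9%) and adipose primary cells (65.2%). Penk led instead in adipose neurospheres (87.8%) and in tdTomato-negative spheroid cells (91.8%). The share of Npy was 13.9% in M2 neurospheres, 9.15% in M1 neurospheres and 11.6% in adipose neurospheres, against 2.02% in bowel primary cells.

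**Figure D2:**
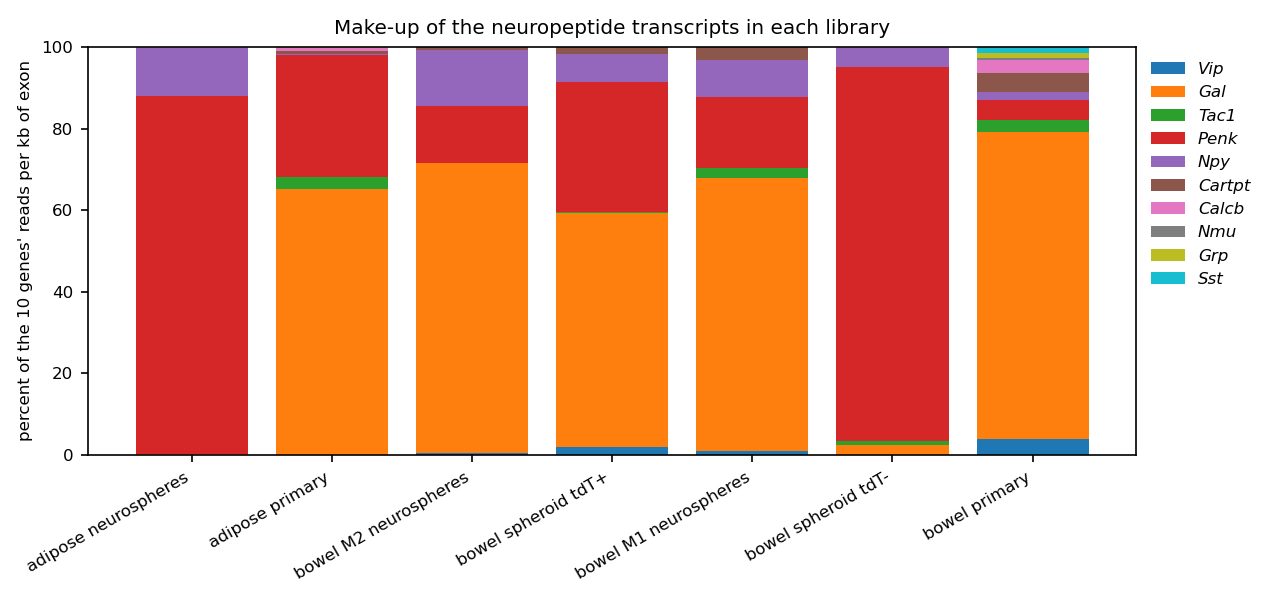
Make-up of the 10 genes' reads per kb of exon in each library, as percent (stacked bars from 0 to 100, 1 bar a library). Gal fills most of the bar in the 4 crest-derived bowel libraries and in adipose primary cells, and Penk fills 87.8% in adipose neurospheres and 91.8% in tdTomato-negative spheroid cells.

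The effect of culture on bowel cells was read from each cultured library against bowel primary cells. These 3 comparisons share the bowel primary library. Calcb, Nmu, Grp and Sst were under 1 CPM in the 3 cultures and were measured only through bowel primary cells. They could not be called higher in a culture, and they enter the counts and medians below. In bowel M1 neurospheres against bowel primary cells, 8 of the 10 genes were called lower and 0 higher, against 16.3% lower and 6.58% higher of all 15422 measured genes. The median log2 ratio of the 10 was -4.30, against -0.07 over all measured genes. Gal was 9.90-fold lower (log2 ratio -3.31, interval -3.33 to -3.28), Tac1 10.6-fold lower (-3.40, -3.47 to -3.34), Cartpt 12.5-fold lower (-3.64, -3.73 to -3.55) and Vip 31.0-fold lower (-4.95, -5.05 to -4.87). Calcb was 1453-fold lower with 7 reads left, Grp 354-fold lower with 12 reads and Sst 631-fold lower with 4 reads. Nmu, with 2 reads, had a log2 ratio of -8.39 (interval -12.50 to -7.60). The 2 genes not called were Penk, at a log2 ratio of -1.35 (-1.38 to -1.31), and Npy, at -0.95 (-1.05 to -0.86).

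In tdTomato-positive spheroid cells against bowel primary cells, all 10 genes were called lower, against 20.4% lower and 6.57% higher of 15232 measured genes. The median log2 ratio was -7.27, against -0.03 over all measured genes. Penk was 4.57-fold lower, the smallest difference, and Npy 8.64-fold lower. Gal was 38.1-fold lower, Vip 59.0-fold, Cartpt 75.4-fold and Tac1 330.4-fold lower. Nmu, Sst and Grp had 0 reads in the spheroid cells. Taking 3 reads as the floor, Nmu was at least 479-fold lower, Sst at least 859-fold and Grp at least 1445-fold.

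In bowel M2 neurospheres against bowel primary cells, 8 of the 10 were called lower and 0 higher, against 21.0% lower and 5.89% higher of 15189 measured genes. The median log2 ratio was -6.56, against -0.07 over all measured genes. Gal was 7.72-fold lower, Cartpt 57.2-fold, Vip 72.1-fold and Tac1 126-fold lower. Calcb and Nmu had 0 reads in M2 neurospheres, which makes Calcb at least 3785-fold lower and Nmu at least 523-fold. Npy was not called, at a log2 ratio of -0.08 (-0.15 to 0.00) that turned to 0.21 with libraries scaled by their totals, nor was Penk, at -1.40 (-1.44 to -1.36).

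As a share of the bowel primary level after scaling, the 3 cultures kept differing amounts of Npy and Tac1 and more similar amounts of Penk. Npy was kept at 94.9% in M2 neurospheres, 11.6% in tdTomato-positive spheroid cells and 51.6% in M1 neurospheres. Penk was kept at 37.8%, 21.9% and 39.4% in the same order of libraries. Tac1 was kept at 0.796% in M2 neurospheres, 0.303% in tdTomato-positive spheroid cells and 9.45% in M1 neurospheres. The highest values for Calcb, Nmu, Grp and Sst in the 3 libraries were 0.106%, 0.142%, 0.283% and 0.158%.

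**Figure D3:**
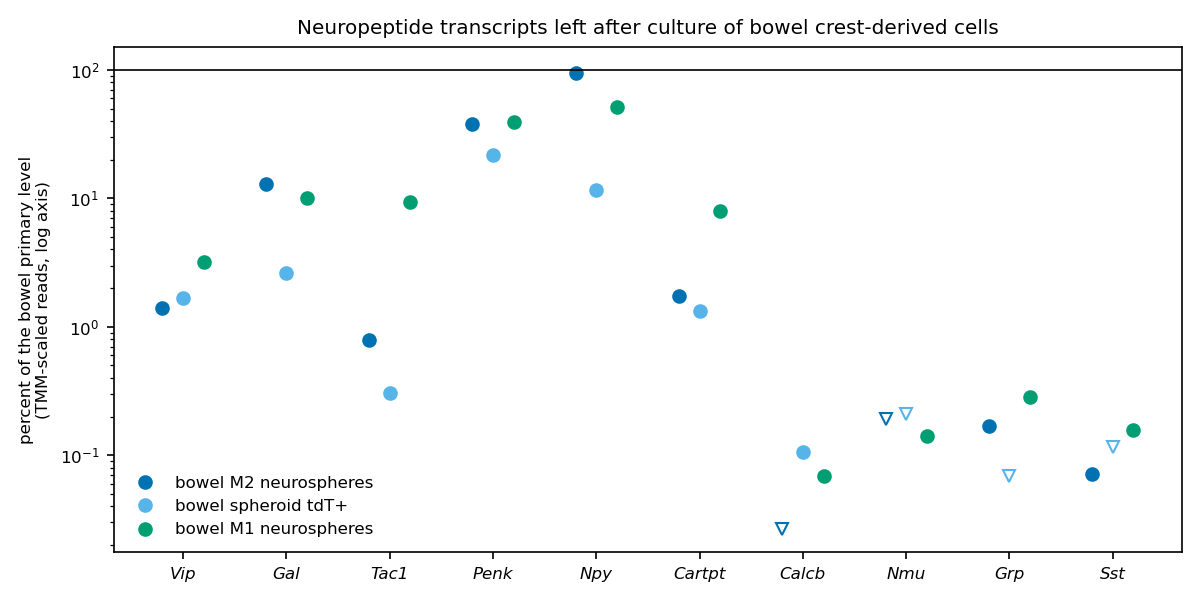
Percent of the bowel primary level (TMM-scaled reads, log axis) found in the 3 cultured crest-derived bowel libraries, for each of the 10 genes. Filled points are measured values, open triangles the level of 3 reads where a library had 0 reads, and the line marks 100%. Npy reaches 94.9% in M2 neurospheres, while Calcb, Nmu, Grp and Sst reach at most 0.283%.

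The genes that process and store the peptides did not all follow them. Of 18 processing and granule genes, all measured, 5 were called lower in M1 neurospheres against bowel primary cells (median log2 ratio -1.48), 12 in tdTomato-positive spheroid cells (-4.09) and 12 in M2 neurospheres (-2.85), and 0 were called higher in any of the 3. Scg2, the granule protein secretogranin II, had 22.6 CPM in M2 neurospheres, 2.38 CPM in tdTomato-positive spheroid cells and 151 CPM in M1 neurospheres, against 847 CPM in bowel primary cells. Pcsk1 had 0 reads in M2 neurospheres, 1.30 CPM in tdTomato-positive spheroid cells and 1.50 CPM in M1 neurospheres, against 45.4 CPM in bowel primary cells. Cpe was not called in any of the 3 and had 1765, 1733 and 1181 CPM in these libraries in turn, against 2088 CPM in bowel primary cells. Pam was not called either.

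Of 18 pan-neuronal markers, 7 were called lower and 1 higher in M1 neurospheres against bowel primary cells (median log2 ratio -0.96), 13 lower and 1 higher in tdTomato-positive spheroid cells (-5.12), and 11 lower and 2 higher in M2 neurospheres (-2.26). The synaptic gene Snap25 had 6.34 CPM in M2 neurospheres, 2.01 CPM in tdTomato-positive spheroid cells and 53.1 CPM in M1 neurospheres, against 417 CPM in bowel primary cells. The RNA-binding gene Elavl4 had 125, 11.5 and 207 CPM in these cultures, against 162 CPM in bowel primary cells. Glial and crest progenitor markers stood the other way: 4, 7 and 6 of 12 were called higher in M1 neurospheres, tdTomato-positive spheroid cells and M2 neurospheres, and 1 was lower in tdTomato-positive spheroid cells. Markers of cell types other than neurons and glia were lower along with the peptides. In the same order of libraries, 5, 7 and 8 of 8 fibroblast markers were called lower, 7, 8 and 8 of the 8 measured immune markers, 8, 7 and 8 of 8 epithelial markers and 18 of 18 acinar markers in each. Summed fibroblast markers were 1467 CPM in M1 neurospheres, 545 CPM in tdTomato-positive spheroid cells and 171 CPM in M2 neurospheres, against 5174 CPM in bowel primary cells. Summed immune markers were 1306, 30.6 and 23.3 CPM in these cultures, against 3313 CPM, and summed epithelial markers 26.2, 1.11 and 0.643 CPM, against 332 CPM. The part of any of these marker groups in the lower peptide levels was not tested.

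Of 15 other peptide precursor genes, 8 were measured in each of these 3 comparisons. Lower calls were made for 6 in M1 neurospheres, 5 in tdTomato-positive spheroid cells and 5 in M2 neurospheres. Adcyap1, which encodes PACAP, a relative of VIP, had 0.0306 CPM in M2 neurospheres, 0 in tdTomato-positive spheroid cells and 1.23 CPM in M1 neurospheres, against 10.4 CPM in bowel primary cells. Pdyn, the precursor of the dynorphins, had at most 0.347 CPM in these cultures, against 6.69 CPM in bowel primary cells. Cck, the cholecystokinin gene, was the only one called higher, in tdTomato-positive spheroid cells (13.6 CPM, against 1.80 CPM in bowel primary cells).

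The cultures were also compared with each other, over the 6 genes that reached 1 CPM in them (Vip, Gal, Tac1, Penk, Npy and Cartpt). In bowel M2 neurospheres against the tdTomato-positive spheroid cells, which were separated at the point where the second culture of M2 cells begins, 2 were called higher and 0 lower, against 3.07% higher and 3.86% lower of 13432 measured genes. They were Npy, 8.20-fold higher (log2 ratio 3.03, 2.87 to 3.20), and Gal, 4.93-fold higher (2.30, 2.25 to 2.35). Vip, at -0.29 (-0.46 to -0.11), and Cartpt, at 0.40 (0.13 to 0.67), were not called. Of 17 measured processing and granule genes, 5 were higher and 1 lower in M2 neurospheres, Chga (chromogranin A) at 12.0 CPM, against 0.619 CPM in the spheroid cells, among the 5.

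In M2 against M1 neurospheres, 2 of the 6 were called lower and 0 higher, against 7.37% lower and 1.20% higher of 14141 measured genes. Tac1 was 11.9-fold lower in M2 neurospheres (-3.56, -3.78 to -3.36) and Cartpt 4.58-fold lower (-2.19, -2.39 to -2.01). Penk, at -0.06, and Gal, at 0.36, differed least. In tdTomato-positive spheroid cells against M1 neurospheres, which were both 10 days in culture, 3 of the 6 were called lower and 0 higher, against 9.10% lower and 3.14% higher of 14245 measured genes. Tac1 was 31.2-fold lower in the spheroid cells, Cartpt 6.04-fold and Npy 4.46-fold lower, and Gal, 3.84-fold lower, was not called (it was with libraries scaled by their totals). M1 neurospheres thus had the highest CPM of Vip, Tac1 and Cartpt in the 3 cultures. Gal and Npy had theirs in M2 neurospheres, where neither was called against M1 neurospheres, and Penk was called in none of these 3 comparisons.

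The tdTomato-positive cells of bowel spheroids were compared with the tdTomato-negative cells that grew beside them. Of the 6 measured genes, 3 were called higher, 1 lower and 2 neither way, against 6.64% higher and 12.5% lower of 13951 measured genes. Vip and Cartpt were under 1 CPM in tdTomato-negative cells and were measured only through the tdTomato-positive cells, where they could not be called lower. Gal was 19.4-fold higher (log2 ratio 4.26, 4.06 to 4.50). Vip, at 563 reads against 1 read, had a log2 ratio of 7.40 (6.41 to 14.20), and Cartpt, at 193 reads against 0, was at least 54.4-fold higher. Tac1 was 4.53-fold lower in the tdTomato-positive cells (-2.15, -2.57 to -1.80), and lost its call when libraries were scaled by their totals. Penk was at -1.81 (-1.86 to -1.77) and Npy at 0.22 (-0.02 to 0.47), neither called. The tdTomato label went with the glial and crest markers, 11 of 11 measured being called higher (summed level of 12 markers 5856 CPM in positive cells, against 33.4 CPM in negative cells). Of 11 measured pan-neuronal markers, 9 were higher and 1, Snap25, lower (2.01 CPM, against 47.3 CPM). Of 16 measured processing and granule genes, 6 were higher, Syt4 most (144 CPM, against 0.417 CPM), and 3 lower, Ptprn most (36.6 CPM, against 634 CPM). Of the 15 other precursors 3 were measured and 2 lower, Cck (13.6 CPM, against 94.7 CPM) and Tac2 (0.0619 CPM, against 10.9 CPM).

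Fresh crest-derived cells of adipose tissue held little of any of the 10 transcripts. In adipose primary against bowel primary cells, all 10 genes were called lower, against 11.4% lower and 7.09% higher of 15585 measured genes. The median log2 ratio of the 10 was -9.52 (-9.44 with Sst at its bound), against 0.09 over all measured genes. Vip, Npy, Cartpt, Calcb, Nmu, Grp and Sst were under 1 CPM in adipose primary cells. These genes were measured only through bowel primary cells, so they could not be called higher, and they weigh on this median. Penk was 30.7-fold lower (-4.94, -5.06 to -4.82), Tac1 175-fold and Gal 211-fold lower. Cartpt was 997-fold lower with 13 reads and Calcb 1157-fold lower with 8 reads. Vip, Npy, Nmu and Grp had 2 reads each in adipose primary cells, with log2 ratios of -12.81 (-16.90 to -12.00), -9.30 (-13.39 to -8.49), -8.28 (-12.37 to -7.46) and -9.87 (-13.96 to -9.06). Sst had 0 reads there and was at least 765-fold lower. Of the pan-neuronal markers 17 of 18 were called lower in adipose primary cells (median log2 ratio -6.03), and of the processing and granule genes 15 of 18 (-6.22). Of the glial and crest progenitor markers 3 of 12 were called higher and 1 lower. Summed sympathetic neuron markers were 9.67 CPM in adipose primary cells, against 211 CPM in bowel primary cells. Summed immune markers were 1754 CPM, against 3313 CPM, and summed fibroblast markers 12107 CPM, against 5174 CPM. Their part in the peptide differences was not tested.

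In adipose neurospheres against adipose primary cells, 4 of the 10 genes were measured, 2 of them called higher and 2 lower, against 5.71% higher and 20.8% lower of 14773 measured genes. Penk was 12.6-fold higher (log2 ratio 3.65, 3.53 to 3.77). Npy, at 371 reads against 2, had a log2 ratio of 6.48 (5.58 to 10.50). Gal was 56.6-fold lower (-5.60, -6.78 to -5.01) with 12 reads in the neurospheres, and Tac1 had 2 reads there and a log2 ratio of -5.01 (-9.07 to -4.13). The direction split by gene, but the filter had limited it. Npy, under 1 CPM in adipose primary cells, could not be called lower in the neurospheres. Gal and Tac1, under 1 CPM in the neurospheres, could not be called higher there. Only Penk could be called either way. Of the processing and granule genes 2 of 8 measured were higher, Syt4 (24.0 CPM, against 0.375 CPM) and Ptprn (53.0 CPM, against 0.687 CPM), and 2 lower, Scg3 (0.584 CPM, against 22.9 CPM) and Cadps2 (0.0812 CPM, against 2.23 CPM). Of 5 measured sympathetic neuron markers, 1 was called higher, Th (1.43 CPM, against 0.125 CPM), and 2 lower, Dbh (0.0487 CPM, against 2.47 CPM) and Ddc (0.0162 CPM, against 1.62 CPM). Slc18a2 had 7.86 CPM in adipose neurospheres, against 4.36 CPM in adipose primary cells, and was not called. The summed level of the 7 listed, 9.66 CPM, against 9.67 CPM, thus hides members that went both ways. Summed fibroblast and immune markers were lower in the neurospheres, at 1397 CPM against 12107 CPM and at 20.2 CPM against 1754 CPM, and the part of these marker genes in the result was not tested.

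Adipose and bowel neurospheres grown in the same 2 stages were compared last. In adipose neurospheres against bowel M2 neurospheres, 5 of the 6 measured genes were called lower and 0 higher, against 8.71% lower and 5.33% higher of 13440 measured genes. Vip, Gal, Tac1 and Cartpt were under 1 CPM in adipose neurospheres and were measured only through bowel M2 neurospheres. They could not be called higher, and only Penk and Npy could be called either way. Gal was 1550.3-fold lower (log2 ratio -10.39, -11.55 to -9.79), with 12 reads against 21435. Vip was 109-fold lower (-6.23, -8.65 to -5.41), Cartpt 30.2-fold (-4.62, -6.14 to -3.92) and Npy 7.06-fold lower (-2.81, -2.98 to -2.66), and Tac1, with 2 reads, had a log2 ratio of -5.56 (-9.54 to -4.62). Penk did not follow, at 132 CPM in adipose neurospheres, against 133 CPM in bowel M2 neurospheres (0.11, 0.07 to 0.15, and -0.01 with libraries scaled by their totals). The call for Npy was lost when another crest-derived bowel culture stood in for M2 neurospheres: the log2 ratio of adipose neurospheres was -1.94 over M1 neurospheres and 0.21 over tdTomato-positive spheroid cells. Of 13 measured pan-neuronal markers 9 were lower and 1, Uchl1, higher in adipose neurospheres (502 CPM, against 105 CPM), and of 16 measured processing and granule genes 9 were lower and 0 higher.

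**Figure D4:**
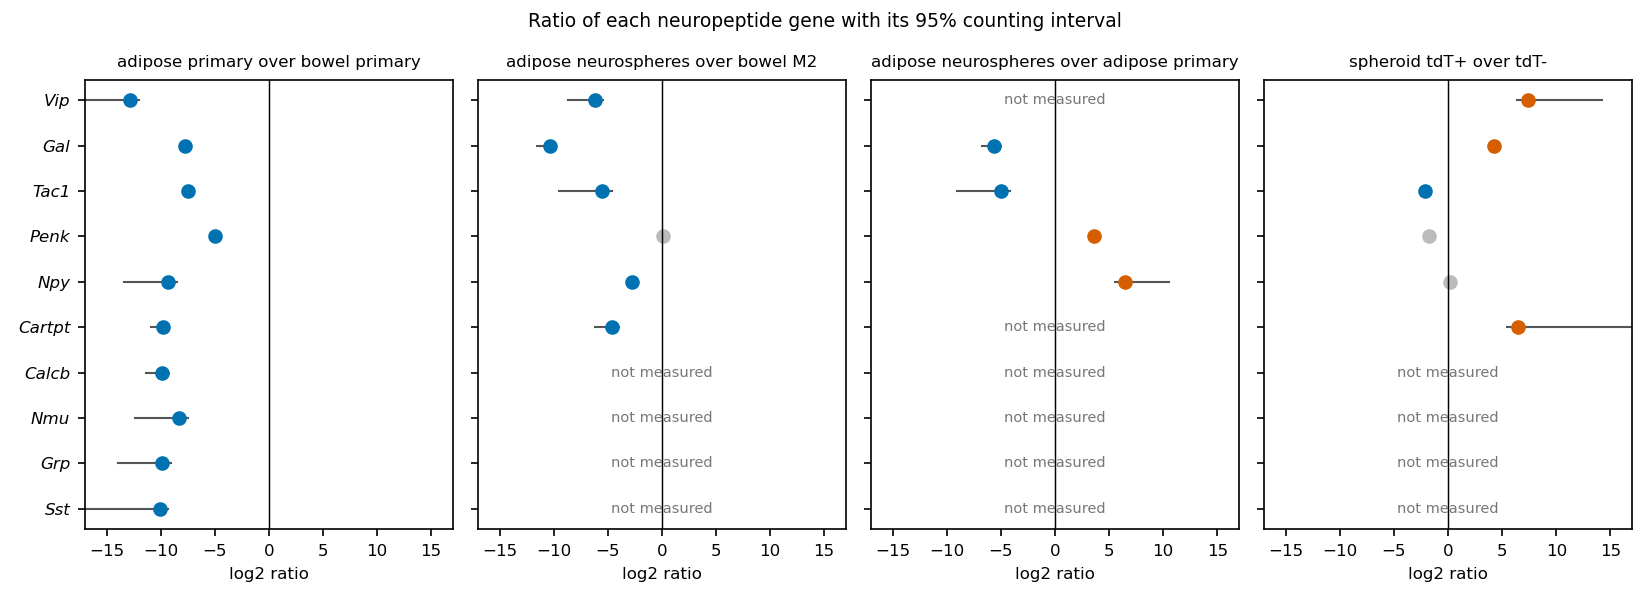
Log2 ratio of each gene in 4 comparisons (the library named first over the second), with 95% counting intervals as horizontal lines. Blue points were called lower, red points higher and grey points neither way. Genes under 1 CPM in both libraries are marked as not measured. All points are computed with a prior count of 2, and the intervals without it. Intervals cut at the edge run past that edge. Penk stands nearest to 0 in both comparisons of adipose with bowel, while Penk and Npy lie to the right and Gal and Tac1 to the left in adipose neurospheres over adipose primary cells.

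The 10 genes were also compared by the shape of their profile over the 7 libraries, as the root mean square difference of log2 levels after each gene's mean was taken off (0 for the same shape). Among 12215 named genes with 10 CPM or more in a library, the nearest to Vip was another of the 10, Cartpt, at 1.13, ahead of Pcsk1n (1.44) and Pnmal1 (1.51), while the median distance of all genes from Vip was 4.75. Pcsk1n encodes proSAAS, an inhibitor of the convertase Pcsk1. The nearest to Cartpt were Ralyl (1.07), Nrsn1 (1.11) and Vip. The nearest to Gal were Spock3 (1.07), Slc10a4 (1.25) and Chga (1.33), and to Tac1 Zcchc12 (0.94), Nap1l5 (0.95) and AW551984 (1.14). Penk had the closest match of the 10, Ttll7 at 0.25, followed by Aplp1 (0.50) and Cacna2d1 (0.57). Npy was nearest to the cannabinoid receptor gene Cnr1 (0.75), then Lrrtm3 (0.95) and Glrb (0.98).

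For the 4 genes read almost only in bowel primary cells, the nearest profiles were those of other genes confined to that library, neuronal and pancreatic alike. Calcb was nearest to Amy2a2 (0.83), Aqp12 (0.84) and Cuzd1 (0.86), and Nmu to Serpini2 (0.47), Ucn3 (0.61) and Smpx (0.62). Grp was nearest to the kappa opioid receptor gene Oprk1 (0.74), then Prss1 (0.84) and Prss3 (0.85), and Sst to the galanin receptor gene Galr2 (0.66), then Reg3g (0.76) and Chst4 (0.77). These lists rest on a few reads in the other libraries: with a prior count of 0.5 in place of 2, 0 of the 3 nearest genes of Calcb, 1 of the 3 of Nmu and 1 of the 3 of Vip were kept. Amylase (Amy2a2) and the trypsinogens (Prss1 and Prss3) are acinar products, so from the profile over 7 libraries transcripts of enteric neurons and of pancreatic material cannot be told apart. Among the 10 themselves, the closest pairs were Calcb with Nmu (0.94), Grp with Sst (1.10) and Vip with Cartpt (1.13), and Penk was nearest to Npy (1.86).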

How the data were processed

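Per the labels' protocols, Trizol RNA was turned into full-length cDNA (SMART-Seq v4), amplified and tagged with Nextera XT. The deposited values are CPM per Entrez gene. The tools named, per the submitters' processing notes, are bcl2fastq 2.17, HISAT and featureCounts, and the build mm10. For HISAT and featureCounts the version, and for counting the annotation and strand setting, were not given in the sources used here. In the authors' CPM, 100% of values were whole multiples of 1 read within 0.05 read, so whole reads were recovered. No count test could be run on them, with 1 library a group and no residual degrees of freedom, so it calls no gene.

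Symbols and coordinates came from a RefSeq table of GRCm38 (25275 of 27179 identifiers matched), and exon lengths from GENCODE. Libraries were scaled by TMM (edgeR 4.0.16, R 4.3.3) over 16461 genes. Log2 ratios used a prior count of 2 and so understate differences of low genes. Fold values were computed without the prior, and bounds against 0 reads from a floor of 3 reads per library. The size rule was checked on simulated data for M1 neurospheres against bowel primary cells (14953 genes measured): it called 100 of 100 genes set 8-fold apart, 0 of 100 set 3-fold apart and 0 of 14753 unchanged genes. The simulated reads were Poisson draws at a known scaling, without spread between pools, and genes with few reads were not set apart. The check thus covers the steps of the rule and gives no rate of false calls for these libraries.

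The members, 11 gene lists (133 genes, all found) and tests were chosen with earlier results of these data known. Named genes were the 10 members, the 3 nearest profiles of each among named genes that reached 10 CPM somewhere, and up to 6 examples from each list by highest or lowest ratio or defining role; where other members of a list were named, they were chosen after their values were seen. Precursor protein sequences were not analysed here.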

Additional observations from a re-analysis of the deposited data

Results flagged for a closer look

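Penk moved in opposite directions with culture in the 2 tissues. Its log2 ratio was 3.65 in adipose neurospheres over adipose primary cells and -1.40 in bowel M2 neurospheres over bowel primary cells, and only the adipose ratio passed the size rule. Seen the other way, its log2 ratio of adipose over bowel was 0.11 in the neurospheres grown in 2 stages and -4.94 in the primary cells. With 1 library a group the difference between these ratios was not tested.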

How the results depend on the processing

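No paired analysis was possible because each group has 1 library, the labels give no replicate numbers and the 2 spheroid fractions make up a single pair, and for the same reason no replicate could be left out. Over the 100 ratios of the 10 genes in 10 comparisons, DESeq2 size factors and TMM without the acinar genes changed no call and shifted a ratio by at most 0.05 and 0.01. Library totals shifted 30 ratios beyond their counting interval, by up to 0.46, lost the call of Tac1 in tdTomato-positive against tdTomato-negative spheroid cells and added that of Gal in tdTomato-positive spheroid cells against M1 neurospheres. A prior count of 0.5 changed no call and shifted ratios of genes with few reads by up to 2.00. With it, of the 3 nearest genes, 0 were kept for Calcb, 1 each for Vip and Nmu, and 2 or 3 for the others.

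The ratio of Npy in adipose neurospheres against bowel M2 neurospheres turned to 0.21 when tdTomato-positive spheroid cells stood in for M2 neurospheres, and was -1.94 with M1 neurospheres. The cause was not tested.

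Counts of genes called moved by over 1.5 times in the following cases. In adipose primary against bowel primary cells the count was 2879, and 4354 with no filter, 1909 at 5 CPM or more, 5592 under a 2-fold rule and 1835 under an 8-fold rule. In M1 neurospheres against bowel primary cells it was 3536, and 7103 under 2-fold and 2063 under 8-fold. Against bowel primary cells it was 4106 in tdTomato-positive spheroid cells and 4082 in M2 neurospheres, and 7126 and 7426 under 2-fold. In tdTomato-positive against tdTomato-negative spheroid cells it was 2663, and 4671 under 2-fold. In M2 neurospheres against tdTomato-positive spheroid cells it was 932, and 1632 with no filter, 514 at 5 CPM, 2651 under 2-fold and 378 under 8-fold. In M2 against M1 neurospheres it was 1212, and 1929 with no filter, 617 at 5 CPM, 3248 under 2-fold and 594 under 8-fold. In tdTomato-positive spheroid cells against M1 neurospheres it was 1743, and 1062 at 5 CPM, 3599 under 2-fold and 904 under 8-fold. In adipose neurospheres against adipose primary cells it was 3910, and 6915 under 2-fold. In adipose neurospheres against M2 neurospheres it was 1887, and 1217 at 5 CPM, 4091 under 2-fold and 1092 under 8-fold. These counts follow from the rule applied.

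Among the 10 genes, the 4 calls in tdTomato-positive against tdTomato-negative spheroid cells became 2 at 5 CPM (without Tac1 and Cartpt), and the 5 in adipose neurospheres against M2 neurospheres became 3 (likewise), and Tac1 also dropped out in adipose neurospheres against adipose primary cells. An 8-fold rule lost 8 calls: Penk in tdTomato-positive spheroid cells and Gal in M2 neurospheres against bowel primary cells, Tac1 in tdTomato-positive against tdTomato-negative spheroid cells, Npy in adipose neurospheres against M2 neurospheres, Gal in M2 neurospheres against tdTomato-positive spheroid cells (1 of 2 calls left), Cartpt in M2 against M1 neurospheres (1 of 2 left), and Npy and Cartpt in tdTomato-positive spheroid cells against M1 neurospheres (1 of 3 left). A 2-fold rule added 6 calls, 3 of them for Penk, and no filter added 3, 2 of them for Calcb. The share of reads taken by the 10 genes in bowel primary cells was 0.395% without the acinar genes, against 0.365%. The floor of 3 reads stood between 0.0459 and 0.0578 CPM in the 7 libraries. A level at or under it cannot be told from 0 reads at this depth.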
